A study of Mus musculus with 8 samples.

Results

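The genes described here are 10 adipogenic regulators and fat cell markers, namely the regulators Cebpb, Cebpd, Pparg, Cebpa and Klf15 and the fat cell genes Lpl, Cd36, Fabp4, Adig and Cfd. They were found by symbol in the deposited table of RMA values, in which 18 of 45037 probe sets and 10 of 20680 gene symbols belonged to them. A probe set is the group of short probes on the array that reads the transcripts of 1 gene, and where a gene had several, the one with the highest mean stood for it. The rule goes by name and uses no measured value, but the members and the related lists below were chosen with earlier results of these data known.

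The series measured total RNA from mouse CH310T1/2 cells in micromass culture, in which a dense drop of cells is grown as a small mass, on GeneChip Mouse Genome 430 2.0 arrays. The name is given as the labels spell it, and resembles C3H10T1/2, a mouse mesenchymal line that can form cartilage, bone and fat cells in culture. All cultures had been electroporated with a plasmid. The 4 groups of 2 arrays were an Erg-010 plasmid driven by the Col2 promoter on day 1, a control plasmid on day 1, an Erg-010 plasmid driven by the CMV promoter on day 0 and a control plasmid on day 0. Erg is an ETS family transcription factor studied here for its part in cartilage cell fate. The CMV promoter is active in most cell types, while the Col2 promoter belongs to the gene of the main cartilage collagen, so the Erg groups of the 2 days differ in promoter as well as in day and the 2 cannot be told apart. No label says whether the arrays numbered 1 and 2 came from separate cultures, so a p-value here reflects only how far these arrays differ, and that spread may be technical.

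Fat cell formation from mesenchymal cells runs in known steps. Cebpb and Cebpd, which encode C/EBP transcription factors, are switched on early and act upstream of Pparg and Cebpa, which encode the nuclear receptor and the C/EBP factor that keep each other on and drive the fat cell programme. Their targets include Fabp4 and Cd36, which carry and take up fatty acids, Lpl, which frees them from lipoproteins, and Cfd, which encodes the secreted protease adipsin.

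Of the 10 genes, 7 had a promoter window in RefSeq's table for GRCm38.p6, 250 bases before to 50 bases from the annotated start on, and those genes had 9 windows. Cebpd, Lpl and Fabp4 are named only. The windows below are shown for Pparg, which was higher on day 1 in both plasmid arms, and for Cebpb, which was lower. Pparg had 3 windows, since the mouse gene is transcribed from several starts, and the C/EBP factors are known to bind and activate Pparg. The probe set for Pparg reads more than 1 of its transcripts, so the levels below do not tell its starts apart. Capitals mark matches, on either strand, to the C/EBP core TTGCNNAA, the cAMP response core TGACG (a part of the element TGACGTCA, which was searched too), the nuclear receptor hexamer AGGTCA, the CCAAT box, the TATA box TATAAA and the ETS core CCGGAA.
Pparg, last window, chr6:115421816-115422115, plus strand: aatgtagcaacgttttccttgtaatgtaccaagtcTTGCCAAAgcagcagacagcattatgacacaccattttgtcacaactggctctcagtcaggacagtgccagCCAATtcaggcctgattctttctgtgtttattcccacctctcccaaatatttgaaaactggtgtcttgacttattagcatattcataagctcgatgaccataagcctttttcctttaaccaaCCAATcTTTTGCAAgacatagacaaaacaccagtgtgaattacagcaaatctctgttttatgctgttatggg
Pparg, second window, chr6:115362099-115362398, plus strand: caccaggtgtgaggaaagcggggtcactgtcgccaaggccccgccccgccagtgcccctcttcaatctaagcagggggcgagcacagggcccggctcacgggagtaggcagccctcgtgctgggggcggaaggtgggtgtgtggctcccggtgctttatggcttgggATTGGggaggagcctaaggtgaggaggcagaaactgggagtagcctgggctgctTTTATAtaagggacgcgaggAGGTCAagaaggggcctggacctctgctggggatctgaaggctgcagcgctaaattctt
Cebpb, chr2:167688665-167688964, plus strand: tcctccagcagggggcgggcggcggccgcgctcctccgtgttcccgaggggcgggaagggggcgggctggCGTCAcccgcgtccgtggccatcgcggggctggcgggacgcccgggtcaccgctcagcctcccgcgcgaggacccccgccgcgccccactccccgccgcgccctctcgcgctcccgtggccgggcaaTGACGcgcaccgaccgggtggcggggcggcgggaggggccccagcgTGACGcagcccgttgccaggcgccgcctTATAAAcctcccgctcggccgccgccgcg
Positions are counted from the annotated start, which is 0. The last Pparg window held 2 matches to the C/EBP core, at -215 to -208 on the plus strand and at -16 to -9 on the minus strand, and 2 CCAAT boxes. The C/EBP core was present in 10.8% of the 32851 windows of that table, and CCAAT in 37.4%. The second Pparg window held the nuclear receptor hexamer at -9 to -4, which 16.3% of windows held, and on the minus strand a CCAAT box and a TATA box, the second of which 13.6% of windows held. The Cebpb window held 3 cAMP response cores, at -180 to -176 on the minus strand and at -53 to -49 and -7 to -3 on the plus strand, against 20.8% of windows with at least 1, and no full element, which 1.79% held. The TATA letters of the Cebpb window lay at 21 to 26, past the annotated start. These letters are descriptions of the windows and not measured sites. The ETS core, held by 14.9% of windows, was in none of the 9 windows of these genes.

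Levels are given as log2 of the RMA intensity, where a difference of 1 is a doubling. On the 8 arrays the first quartile of all probe sets lay at 5.26 to 5.38, the median at 6.59 to 6.70 and the third quartile at 8.55 to 8.83. Levels of different probe sets are not set against each other beyond these marks. Replicate 2 of the Erg day 0 group stood apart from replicate 1: the SD of their difference over all probe sets was 0.611, against 0.233 in Erg day 1, 0.335 in control day 1 and 0.26 in control day 0. Set against the 2 control day 0 arrays the SD was 0.451 and 0.614 for replicate 2, and 0.303 and 0.266 for replicate 1. The overexpressed gene did not show the plasmid. Erg probe set 1440244_at was at 8.53 and 7.68 on Erg day 1 arrays, against 8.43 and 8.50 on control day 1 arrays, and at 6.79 and 5.59 on Erg day 0 arrays, against 7.30 and 7.61 on control day 0 arrays. The other Erg probe set, 1425370_a_at, differed by -0.09 (Erg minus control) on day 1 and by -0.14 on day 0. Whether these probes read the plasmid's transcript is not given in the sources used here, so "Erg" below stands for the arrays labelled so. The cultures were fibroblast-like by their transcripts, with 10 of 10 fibroblast marker genes above the array median in every group.

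The day is the comparison in which the fat cell regulators differed most. From day 0 to day 1, Pparg rose in both plasmid arms by a factor of over 3, and was the only member past the threshold in the upward direction in either arm. In Erg cultures the only member probe sets past the threshold in the downward direction were 1 of Cebpb and 1 of Cebpd. That of Cebpd, 1456605_at, was aligned to the strand opposite to its other probe set and may not read the Cebpd messenger RNA. In control cultures Cebpb, Cebpd, Cd36, Adig and Cfd fell. Fabp4 had day 1 means above its day 0 means in both arms, and Lpl differed widely between the arrays of 3 of the 4 groups, and neither passed the threshold. Differences are day 1 minus day 0 with their SE from limma, n is 2 arrays a group, and passing means an adjusted p from limma (Benjamini-Hochberg over all 45037 probe sets) under 0.05.

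In Erg cultures 1 of 18 member probe sets was higher on day 1, against a background of 5.32% of all probe sets, and 2 of 18 were lower, against 1.67%. In control cultures 1 of 18 was higher, against 11.8%, and 8 of 18 were lower, against 7.97%. By gene, 1 of 10 was higher and 0 of 10 lower in Erg cultures, against 6.18% and 1.88% of all genes. In control cultures 1 of 10 was higher and 5 of 10 lower, against 11% and 9.26%. The median over the 10 genes was 0.32 in Erg cultures, where the median of all genes was -0.07, and -0.62 in control cultures, where that of all genes was -0.15. These counts moved with single arrays. Without Erg day 0 replicate 2, 5 member probe sets passed in Erg cultures (1 higher and 4 lower) and 10 in control cultures (2 higher and 8 lower), and the median over the 10 genes in Erg cultures was -0.27. Without Erg day 0 replicate 1, 7 passed in Erg cultures, 5 of them higher, where 23% of all probe sets passed, against 9.65% of all in Erg cultures and 36.6% in control cultures without replicate 2. With replicate 1 left out the median over 10 fibroblast markers in Erg cultures was 1.19, where that of all genes was -0.02. The part of these markers in the member values was not tested. Leaving out either control day 0 array left 1 member probe set past the threshold in control cultures, that of Pparg, where 1.8% or 0.813% of all probe sets passed, and leaving out control day 1 replicate 1 or 2 left 5 or 3, where 9.94% or 6.63% of all passed. Leaving out an Erg day 1 or a control day 0 array also lowered the member count in Erg cultures, and lowered the count over all probe sets.

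**Figure D1:**
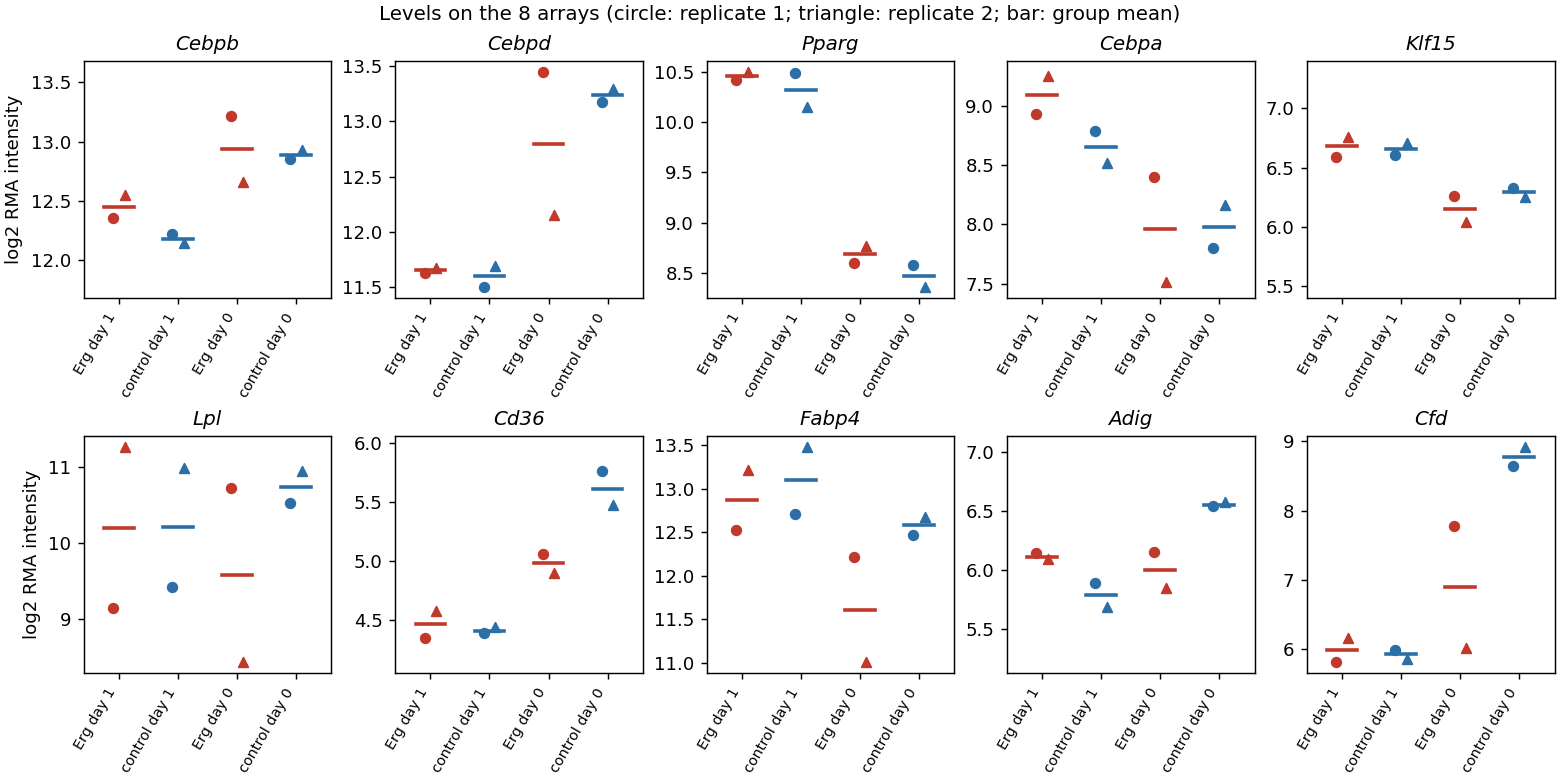
Log2 RMA intensity of the probe set that stands for each of the 10 genes on the 8 arrays, with Erg groups in red, control groups in blue, circles for replicate 1, triangles for replicate 2 and bars for group means. Pparg lies at 10.15 to 10.50 on all day 1 arrays and at 8.36 to 8.77 on all day 0 arrays, and Cfd is at 5.81 to 6.16 on all day 1 arrays.

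Cebpb encodes the C/EBP factor that starts the cascade, and both its probe sets lay above the third quartile on all 8 arrays. Probe set 1418901_at (chr2:167514414-167515915, plus strand, NCBIM37 as are all probe set positions here) was at 12.35 and 12.55 on Erg day 1 arrays, against 12.66 and 13.22 on Erg day 0 arrays. It was at 12.14 and 12.22 on control day 1 arrays, against 12.85 and 12.93 on control day 0 arrays. Every day 1 array was below every day 0 array, and the levels of the Erg and control groups of day 0 overlapped. The difference was -0.50 (SE 0.20, adjusted p = 0.18) in Erg cultures and -0.71 (SE 0.20, adjusted p = 0.0475) in control cultures. The control call is near the threshold and was made in 7 of 18 alternative settings. The second probe set, 1427844_a_at (chr2:167515107-167515446), differed by -1.03 (SE 0.19, adjusted p = 0.0278) in Erg cultures and by -1.11 (SE 0.19, adjusted p = 0.0121) in control cultures, and was called in 12 and 15 of 18 alternative settings.

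Cebpd encodes the C/EBP factor that acts beside C/EBP beta at the start. Probe set 1423233_at (chr16:15887105-15888559) was at 11.63 and 11.67 on Erg day 1 arrays, against 13.45 and 12.15 on Erg day 0 arrays. It was at 11.50 and 11.69 on control day 1 arrays, against 13.18 and 13.29 on control day 0 arrays. The 4 day 1 arrays lay close together and below all day 0 arrays, and Erg day 0 replicate 2 was the lowest of day 0. The difference was -1.15 (SE 0.37, adjusted p = 0.12) in Erg cultures and -1.64 (SE 0.37, adjusted p = 0.0276) in control cultures, a 3.12-fold lower level. In Erg cultures it was -1.80 (adjusted p = 0.00234) without Erg day 0 replicate 2 and -0.50 (adjusted p = 0.0514) without replicate 1. The dimmer Cebpd probe set 1456605_at was aligned to the strand opposite to the other, so it may not read the Cebpd messenger RNA. It differed by -0.61 (SE 0.13, adjusted p = 0.0414) in Erg cultures, a call lost without Erg day 0 replicate 2 (adjusted p = 0.0672), and by -0.91 (SE 0.13, adjusted p = 0.00761) in control cultures.

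Pparg encodes the nuclear receptor that fat cell formation requires. Its probe set 1420715_a_at (chr6:115372083-115440417, plus strand) was at 10.42 and 10.50 on Erg day 1 arrays, against 8.60 and 8.77 on Erg day 0 arrays. It was at 10.49 and 10.15 on control day 1 arrays, against 8.58 and 8.36 on control day 0 arrays. The day 1 and day 0 arrays were separated by a wide gap and the plasmid groups of each day lay together. Pparg rose by 1.77 (SE 0.16, 95% interval 1.39 to 2.16, adjusted p = 0.00466) in Erg cultures, 3.42-fold, and by 1.86 (SE 0.16, 95% interval 1.47 to 2.24, adjusted p = 0.00267) in control cultures, 3.62-fold. The call was made in all 18 alternative settings in control cultures, with differences of 1.69 to 2.03, and in 16 of 18 in Erg cultures, with 1.66 to 1.86. The Erg exceptions were the fit on the 4 arrays of the comparison alone (adjusted p = 0.0662) and the fit without Erg day 1 replicate 2 (adjusted p = 0.0642). In the authors' deposited table the q-value of Pparg was 0.00237 for the Erg days and 0.00094 for the control days.

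Cebpa encodes the C/EBP factor that maintains Pparg in fat cells. It was at 8.93 and 9.25 on Erg day 1 arrays, against 8.40 and 7.51 on Erg day 0 arrays. It was at 8.79 and 8.52 on control day 1 arrays, against 7.80 and 8.16 on control day 0 arrays. All day 1 arrays lay above all day 0 arrays, with a narrow gap at Erg day 0 replicate 1. The differences, 1.13 (SE 0.30, adjusted p = 0.0778) in Erg cultures and 0.67 (SE 0.30, adjusted p = 0.157) in control cultures, did not pass the threshold. Klf15, which encodes a zinc finger factor that activates Pparg, was dimmer and lay at 6.59 and 6.76 on Erg day 1 arrays, against 6.26 and 6.04 on Erg day 0 arrays. It lay at 6.61 and 6.71 on control day 1 arrays, against 6.33 and 6.25 on control day 0 arrays. Its groups of the days did not overlap either, with differences of 0.53 (SE 0.14, adjusted p = 0.0706) in Erg cultures and 0.37 (SE 0.14, adjusted p = 0.0993) in control cultures. The authors' deposited table has q-values of 0.0358 (Erg) and 0.0347 (control) for Klf15 and of 0.0395 (Erg) and 0.0548 (control) for Cebpa. At a q-value under 0.05 that table calls 5 of the 18 probe sets between the Erg days and 11 between the control days. The share of all probe sets it calls was not counted here. Its limma p-values for Klf15, 0.00663 (Erg) and 0.0313 (control), are those of the fit here. For Klf15 the q-value and the adjusted p therefore differ by the adjustment alone.

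**Figure D2:**
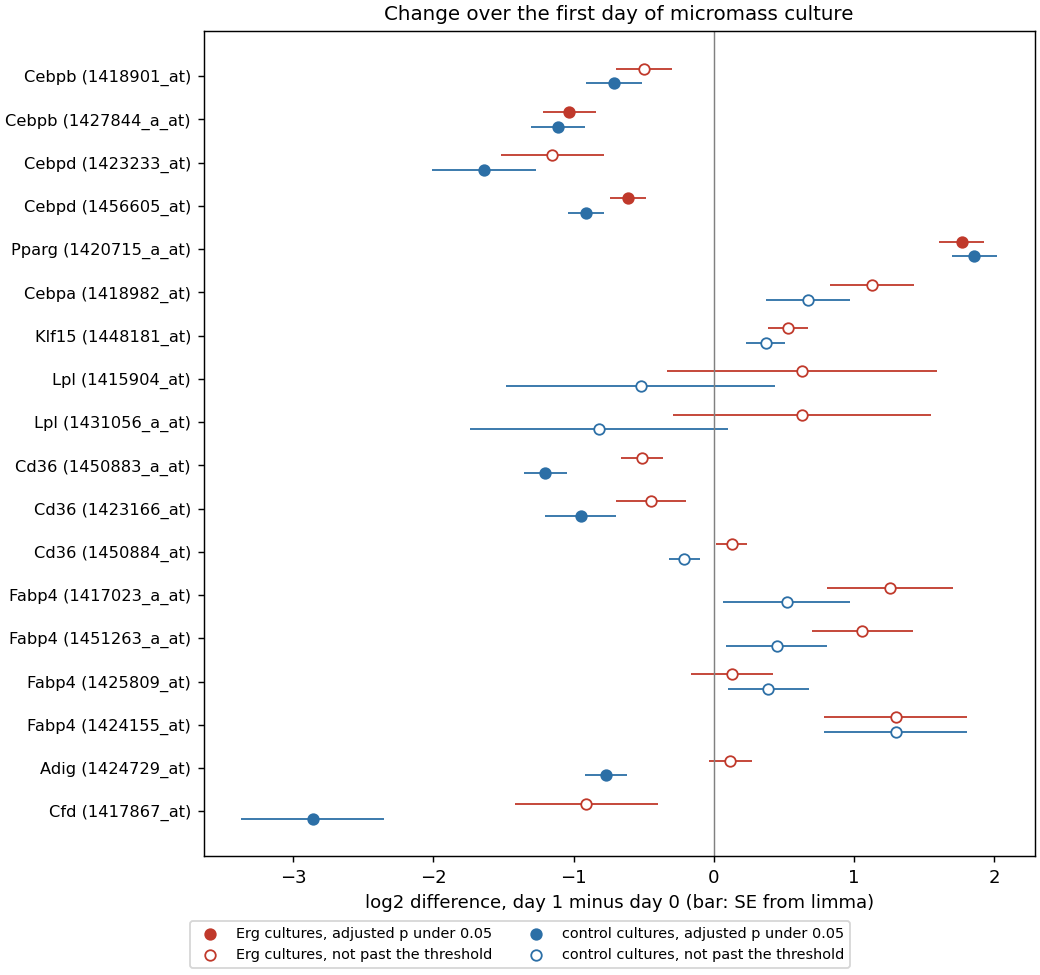
Log2 difference of day 1 minus day 0 for the 18 probe sets, with SE bars from limma, Erg cultures in red above control cultures in blue, and filled points past the adjusted threshold. Pparg stands at 1.77 in Erg cultures and 1.86 in control cultures, and Cfd at -0.91 in Erg cultures and -2.86 in control cultures.

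Fabp4 encodes the fatty acid carrier of fat cells, and its 2 bright probe sets lay above the third quartile on all 8 arrays. Its brightest probe set 1417023_a_at (chr3:10204341-10208559, minus strand) was at 12.53 and 13.22 on Erg day 1 arrays, against 12.22 and 11.01 on Erg day 0 arrays. It was at 12.71 and 13.48 on control day 1 arrays, against 12.47 and 12.68 on control day 0 arrays. The control days were separated by a gap of little width and replicate 2 was the higher on day 1 in both arms. The differences were 1.26 (SE 0.45, adjusted p = 0.146) in Erg cultures and 0.52 (SE 0.45, adjusted p = 0.422) in control cultures. The probe set 1451263_a_at gave 1.06 in Erg cultures and 0.45 in control cultures. The dimmer 1425809_at gave 0.13 in Erg cultures and 0.39 in control cultures, and 1424155_at gave 1.30 in both arms, so the probe sets of Fabp4 shared a sign but not a size. The difference of 1417023_a_at in Erg cultures was 0.65 (adjusted p = 0.279) without Erg day 0 replicate 2 and 1.87 (adjusted p = 0.0125) without replicate 1. That of 1451263_a_at was 0.55 (adjusted p = 0.235) without replicate 2 and 1.56 (adjusted p = 0.00886) without replicate 1, so both passed in the fit that keeps replicate 2 alone.

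Lpl encodes the lipase that frees fatty acids from lipoproteins. Its probe set 1415904_at (chr8:71404452-71430831, plus strand) was at 9.15 and 11.26 on Erg day 1 arrays, against 10.72 and 8.44 on Erg day 0 arrays. It was at 9.43 and 10.99 on control day 1 arrays, against 10.53 and 10.94 on control day 0 arrays. Replicate 2 was the higher array on day 1 in both arms, and the groups overlapped. The day difference was 0.63 (SE 0.96, 95% interval -1.65 to 2.91) in Erg cultures and -0.52 (SE 0.96, 95% interval -2.80 to 1.76) in control cultures, intervals that hold both directions. Probe set 1431056_a_at was at 7.09 and 8.92 on Erg day 1 arrays, against 8.69 and 6.07 on Erg day 0 arrays, and at 7.44 and 8.45 on control day 1 arrays, against 8.68 and 8.87 on control day 0 arrays. Its Erg groups overlapped, and both its control day 1 arrays lay below both control day 0 arrays. The sign of the Lpl difference in Erg cultures turned, to -0.51 and -0.68, without Erg day 0 replicate 2, and the differences were 1.77 and 1.93 without replicate 1.

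Cfd was the member with the widest range in the series. It was at 5.81 and 6.16 on Erg day 1 arrays, against 7.78 and 6.02 on Erg day 0 arrays. It was at 5.98 and 5.86 on control day 1 arrays, against 8.64 and 8.92 on control day 0 arrays (1417867_at, chr10:79353622-79355400, plus strand). The day 1 arrays of both arms lay together at a level that Erg day 0 replicate 2 shared, and the control day 0 arrays stood highest. Cfd fell by 2.86 in control cultures (SE 0.51, adjusted p = 0.0137), 7.25-fold. In Erg cultures the difference was -0.91 (SE 0.51, adjusted p = 0.311), and without Erg day 0 replicate 2 it was -1.79 (adjusted p = 0.00533). Without replicate 1 in its place it was -0.03 (adjusted p = 0.938).

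Adig, which encodes a small protein of fat cells also called adipogenin, was at 6.14 and 6.09 on Erg day 1 arrays, against 6.15 and 5.85 on Erg day 0 arrays. It was at 5.89 and 5.69 on control day 1 arrays, against 6.54 and 6.57 on control day 0 arrays. The control groups did not overlap and the Erg groups did. Adig fell by 0.77 in control cultures (SE 0.15, adjusted p = 0.0169), and its difference in Erg cultures was 0.12 (SE 0.15, adjusted p = 0.653). All levels of Adig lay below the array median.

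Cd36, the fatty acid transporter, was dim. Its brightest probe set 1450883_a_at (chr5:17287507-17341714, minus strand) was at 4.35 and 4.58 on Erg day 1 arrays, against 5.06 and 4.90 on Erg day 0 arrays. It was at 4.39 and 4.44 on control day 1 arrays, against 5.76 and 5.47 on control day 0 arrays. It was below the first quartile on 6 of 8 arrays, the control day 0 arrays being the exception, and the other 2 Cd36 probe sets were below it on all 8. Differences at this level are near the low end of the array's range. The probe set fell by 1.20 in control cultures (SE 0.15, adjusted p = 0.00601), and its difference in Erg cultures was -0.51 (SE 0.15, adjusted p = 0.102). Probe set 1423166_at gave -0.95 (SE 0.25, adjusted p = 0.0429) in control cultures, and 1450884_at gave -0.21 (adjusted p = 0.218). The call of 1423166_at is near the threshold and was made in 7 of 17 alternative settings.

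Cd36, Lpl and Fabp4 are also made by macrophages and endothelial cells, so the markers of those cells stand beside these values. The summed level of 10 macrophage markers was 9.64 to 9.87 on Erg day 1 arrays, against 10.72 to 11.27 on Erg day 0 arrays, and 9.66 to 9.81 on control day 1 arrays, against 11.18 to 11.35 on control day 0 arrays. Of these 10, 0 were higher and 4 lower in control cultures, against 11% and 9.26% of all genes. The lower ones were led by Cd14 at -2.32 (adjusted p = 0.00974) and Cd68 at -1.60 (adjusted p = 0.0443). In Erg cultures 0 were higher and 2 lower, against 6.18% and 1.88%. Such a sum is carried by the brighter genes, and 4 of the 10 markers averaged below the first quartile in every group. The defining leukocyte gene Ptprc averaged 4.32 on control day 1 arrays and 4.62 on control day 0 arrays, and Itgam averaged 3.86 on control day 1 arrays and 4.19 on control day 0 arrays, both below the first quartile. The summed level of 8 endothelial markers was 8.97 to 9.07 on Erg day 1 arrays, against 8.99 to 9.32 on Erg day 0 arrays, and 8.82 to 9.05 on control day 1 arrays, against 9.13 to 9.40 on control day 0 arrays. The cultures are labelled as a cell line, and the part of these cell types in the member values was not tested. In such bulk samples fewer cells of a type and less RNA per cell cannot be told apart.

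The wider pathway was read from 5 lists of related genes. Their counts stand beside those over all 20680 genes, of which 6.18% were higher and 1.88% lower on day 1 in Erg cultures and 11% were higher and 9.26% lower in control cultures. No test of a list was made. Of 15 genes known to promote fat cell formation, 8 were higher and 0 lower in Erg cultures, with a median of 0.62, and 8 were higher and 2 lower in control cultures, with a median of 0.79. Zfp423, which encodes a zinc finger factor that commits cells to the fat lineage upstream of Pparg, rose by 2.29 (SE 0.27, adjusted p = 0.00917) in Erg cultures and by 2.50 (SE 0.27, adjusted p = 0.00426) in control cultures. Ebf1, which encodes an activator of Pparg and Cebpa, rose by 2.12 (SE 0.36, adjusted p = 0.0228) in Erg cultures and by 1.99 (SE 0.36, adjusted p = 0.0143) in control cultures. Stat5a rose by 1.58 (SE 0.34, adjusted p = 0.0436) in Erg cultures, and its difference in control cultures was 1.18 (SE 0.34, adjusted p = 0.0531). Nr3c1, the glucocorticoid receptor, rose by 0.56 (SE 0.12, adjusted p = 0.0422) in Erg cultures and by 0.86 (SE 0.12, adjusted p = 0.00719) in control cultures. Nr1h3, the liver X receptor alpha gene, differed by -0.28 (adjusted p = 0.229) in Erg cultures and fell by 0.74 in control cultures. Prdm16, a brown fat regulator, differed by -0.24 (adjusted p = 0.268) in Erg cultures and fell by 0.55 in control cultures. In Erg cultures 5 activators were higher without Erg day 0 replicate 2, beside 7.7% of all genes, and 10 without replicate 1, beside 14.3%. In control cultures 10 were higher and 2 lower in either fit, beside 17.7% and 20.9%.

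Of 12 genes known to hold back fat cell formation, 1 was higher and 1 lower in Erg cultures, and 2 were higher and 0 lower in control cultures. Tcf7l2, a transcription factor of Wnt signalling, rose by 1.89 (SE 0.20, adjusted p = 0.00705) in Erg cultures and by 2.35 (SE 0.20, adjusted p = 0.00266) in control cultures. Gata2, whose product represses Pparg, differed by 0.61 (SE 0.19, adjusted p = 0.108) in Erg cultures and rose by 1.13 (SE 0.19, adjusted p = 0.0119) in control cultures. Gata3 fell by 0.76 (SE 0.16, adjusted p = 0.0408) in Erg cultures and differed by -0.52 (SE 0.16, adjusted p = 0.0622) in control cultures. The median over the 12 in Erg cultures was 0.28, where that of all genes was -0.07. It was 0.34 with Erg day 0 replicate 2 left out and 0.23 with replicate 1 left out, where those of all genes were -0.09 and -0.02. In control cultures the median was 0.41, where that of all genes was -0.15.

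Of 11 measured products of mature fat cells, 1 was higher and 0 lower in Erg cultures, with a median of -0.17, and 1 was higher and 2 lower in control cultures, with a median of -0.36. The higher gene was in both arms Plin4, which encodes a lipid droplet coat protein, at 2.06 (SE 0.27, adjusted p = 0.012) in Erg cultures and 1.81 (SE 0.27, adjusted p = 0.00884) in control cultures. Retn, which encodes the hormone resistin, differed by -0.37 (adjusted p = 0.22) in Erg cultures and fell by 0.70 (adjusted p = 0.0289) in control cultures. Slc2a4, the insulin-responsive glucose transporter, differed by -0.17 (adjusted p = 0.476) in Erg cultures and fell by 0.49 (adjusted p = 0.0453) in control cultures. Of 15 enzymes and cofactors of triglyceride handling, 4 were higher and 0 lower in Erg cultures, and 4 were higher and 3 lower in control cultures. In Erg cultures 4 were higher and 1 lower with Erg day 0 replicate 2 left out, beside 7.7% and 3.27% of all genes, and 7 were higher and 1 lower with replicate 1 left out, beside 14.3% and 12.3%. Lpin1, a phosphatidate phosphatase, rose by 1.56 (SE 0.18) and Bscl2, which encodes the lipid droplet protein seipin, by 1.17 (SE 0.13) in Erg cultures, with 1.62 (SE 0.18) and 1.55 (SE 0.13) in control cultures. Fasn, the fatty acid synthase, rose by 1.08 (SE 0.19, adjusted p = 0.0255) in Erg cultures and by 0.91 (SE 0.19, adjusted p = 0.0215) in control cultures. Abhd5, Gpd1 and Pck1 differed by -0.85, -0.20 and -0.12 in Erg cultures, none past the threshold, and fell by 0.86, 0.71 and 0.61 in control cultures. Of 5 measured relatives of the member families, 0 passed in limma in Erg cultures, with 0 at an unadjusted p under 0.05, and Ppara at -0.54 (adjusted p = 0.0499) and Fabp3 at -0.50 (adjusted p = 0.0241) were lower in control cultures.

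**Figure D3:**
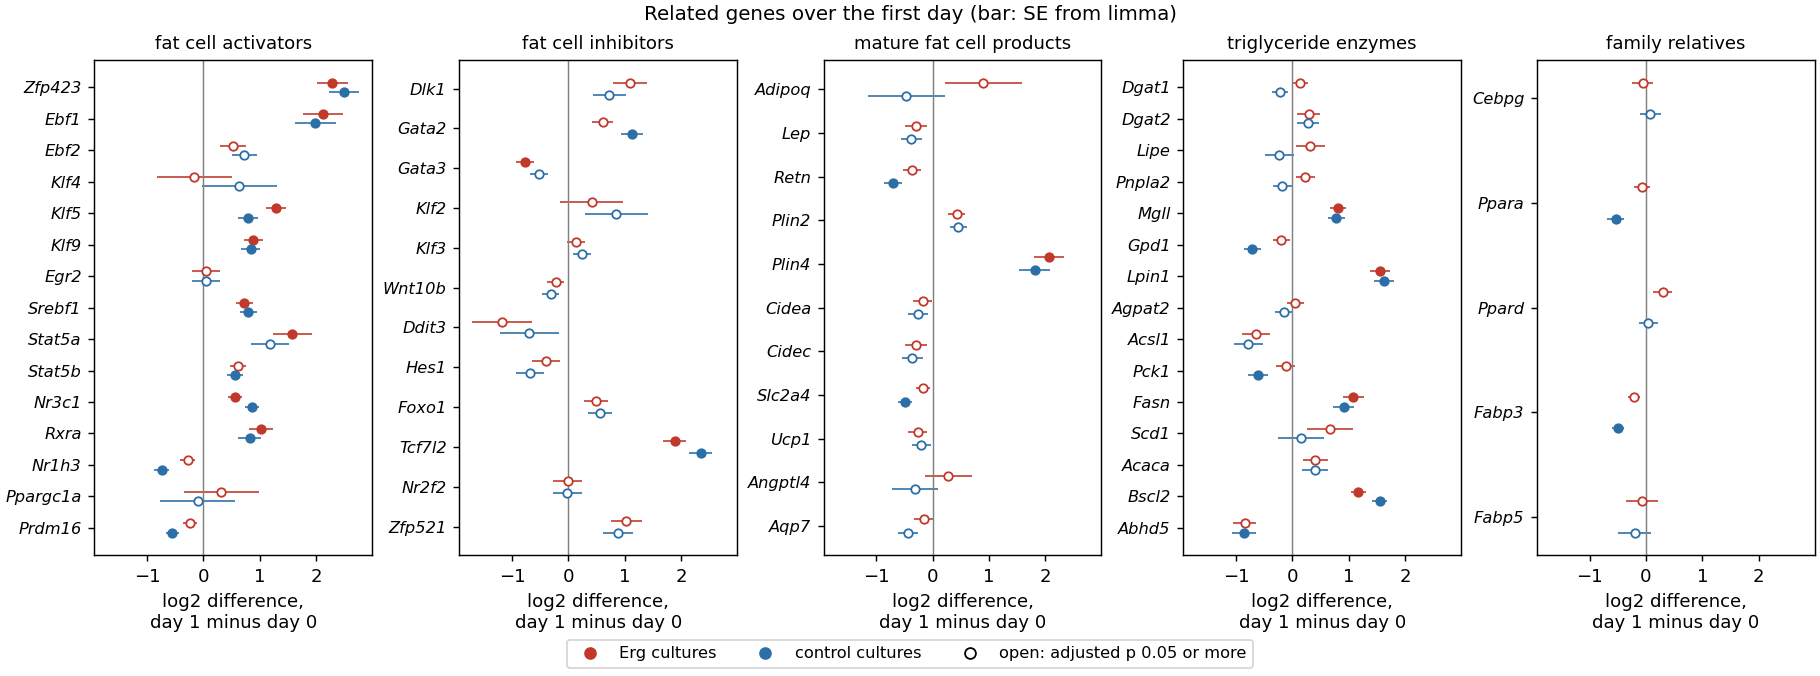
Log2 difference of day 1 minus day 0 for each measured gene of the 5 lists, Erg cultures in red above control cultures in blue, with SE bars from limma and open points where the adjusted p is 0.05 or more. Among the activators Zfp423 and Ebf1 lie furthest to the right, and among the products Plin4 alone is filled on the right, at 2.06 in Erg cultures and 1.81 in control cultures.

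The comparison the labels set up is that of the Erg plasmid with the control plasmid on each day. On day 1, with the Col2 promoter, no member passed the threshold in limma, where 0% of all probe sets did, and 0 of 18 had an unadjusted p under 0.05, against 1.37% of all. Both Erg arrays were above both control arrays in 5 of 18, against 19% of all, and below in 0 of 18, against 12.6%. The median over the 10 genes was 0.06, that of all genes 0.04. Pparg differed by 0.14 (SE 0.16, 95% interval -0.25 to 0.53), Cebpa by 0.43 (SE 0.30, 95% interval -0.29 to 1.16), Fabp4 by -0.23 (SE 0.45, 95% interval -1.30 to 0.85) and Cfd by 0.06 (SE 0.51, 95% interval -1.14 to 1.27). These intervals are wide enough that a change of over 1.5-fold is within them for Cebpa, Fabp4 and Cfd. Their width is not that of the day 1 arrays alone, since the fit pools the spread of all 4 groups. For Cfd the SD was 0.24 in Erg day 1 and 0.09 in control day 1, against 1.24 in Erg day 0. The 5 with both Erg arrays above were those of Cebpb, Cebpa and Adig and 1450884_at of Cd36, with Adig at 6.14 and 6.09 on Erg arrays, against 5.89 and 5.69 on control arrays (difference 0.33, SE 0.15, adjusted p = 1).

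On day 0, with the CMV promoter, 0 of 18 passed in limma, where 0% of all probe sets did, and 3 of 18 had an unadjusted p under 0.05, against 5.43% of all. Both Erg arrays were below both control arrays in 8 of 18, against 17.6% of all, and above in 1 of 18, that of Pparg, against 13.6%. The median over the 10 genes was -0.50, that of all genes -0.03, and it was -0.02 without Erg day 0 replicate 2. The 3 with an unadjusted p under 0.05 were Cfd, Adig and the brightest probe set of Cd36. Cfd was at 7.78 and 6.02 on Erg arrays, against 8.64 and 8.92 on control arrays, a difference of -1.88 (SE 0.51, adjusted p = 0.802). Adig was at 6.15 and 5.85 on Erg arrays, against 6.54 and 6.57 on control arrays, a difference of -0.56 (SE 0.15, adjusted p = 0.802). Cd36 was at 5.06 and 4.90 on Erg arrays, against 5.76 and 5.47 on control arrays, a difference of -0.64 (SE 0.15, adjusted p = 0.802). In each of them both Erg arrays were lower than both control arrays, and Erg day 0 replicate 2 was the lower Erg array. Without that array the differences were -1.0 for Cfd, -0.41 for Adig and -0.56 for Cd36, each with an adjusted p of 0.665. Without Erg day 0 replicate 1, which leaves the array that stands apart, 4 member probe sets passed, with Cfd at -2.76, Cebpd at -1.09, Fabp4 at -1.31 and Adig at -0.70, where 7.54% of all probe sets passed. In that fit the median over 10 fibroblast markers was -0.82, where that of all genes was -0.08. The part of these markers in the member values was not tested.

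The regulators showed no common direction on day 0. Pparg was at 8.60 and 8.77 on Erg arrays, against 8.58 and 8.36 on control arrays, a difference of 0.22 (SE 0.16, adjusted p = 0.814). Cebpb differed by 0.05 (SE 0.20) and Cebpd by -0.44 (SE 0.37), Cebpa by -0.03 (SE 0.30) and Klf15 by -0.14 (SE 0.14). The sign of Cebpd and of Cebpa turned, to 0.21 and 0.42, without Erg day 0 replicate 2. Lpl differed by -1.16 (SE 0.96) and Fabp4 by -0.96 (SE 0.45), which were -0.02 and -0.36 without that array. In the 5 lists of related genes, with 58 genes measured, 0 passed in limma on either day, and 1 on day 1 and 6 on day 0 had an unadjusted p under 0.05.

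**Figure D4:**
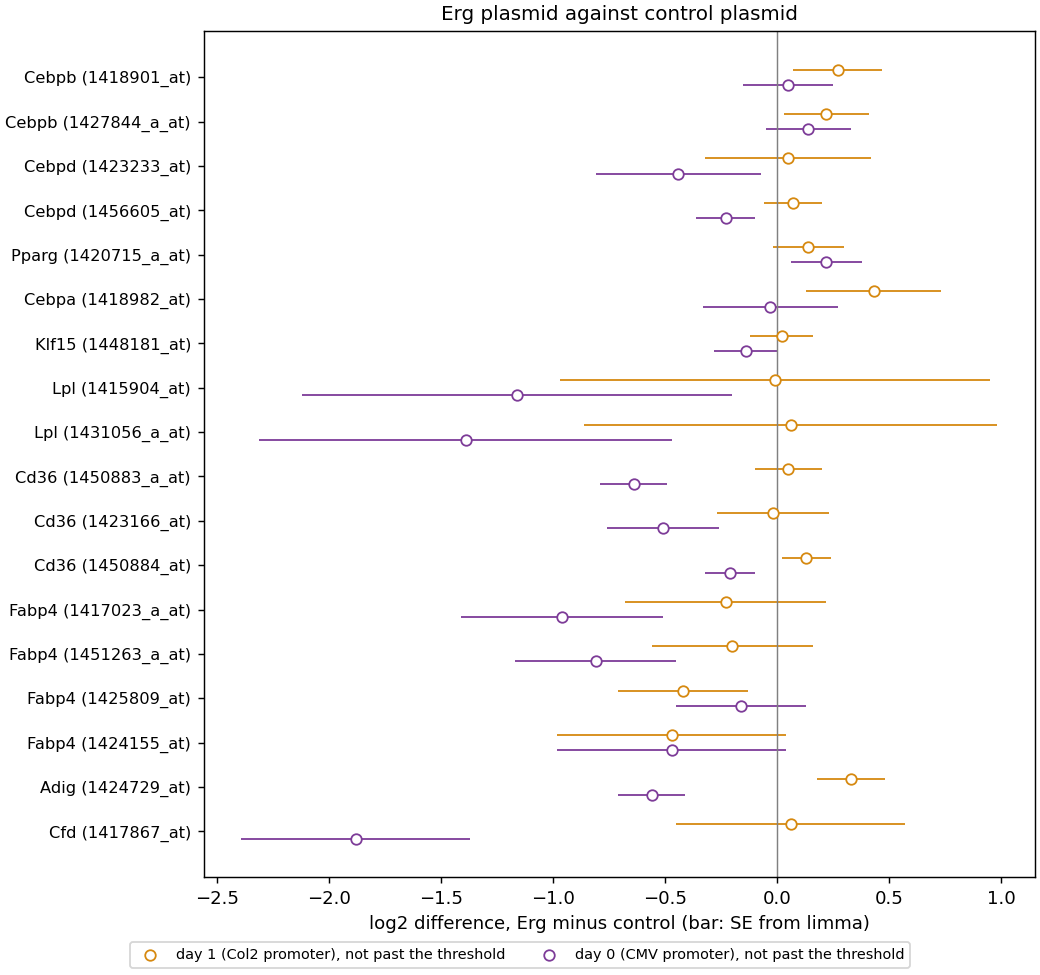
Log2 difference of Erg minus control for the 18 probe sets, day 1 (Col2 promoter) in orange above day 0 (CMV promoter) in purple, with SE bars from limma. No point is past the threshold, and Cfd lies at 0.06 on day 1 and at -1.88 on day 0.

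The difference between the days of the Erg effect, taken as the day 1 effect minus the day 0 effect, was tested by an interaction term, which also carries the change of promoter. In limma 0 of 18 passed, where 0% of all probe sets did, and 3 of 18 had an unadjusted p under 0.05, against 2.44% of all. They were Cfd at 1.95 (SE 0.71, adjusted p = 0.974), Adig at 0.88 (SE 0.21, adjusted p = 0.974) and Cd36 at 0.69 (SE 0.22, adjusted p = 0.974). Without Erg day 0 replicate 2 they were 1.07, 0.73 and 0.61, and without replicate 1 Cfd passed at 2.83 (adjusted p = 0.0138). For Pparg the term was -0.08 (SE 0.23, 95% interval -0.63 to 0.46). The fall of Cfd, Adig and Cd36 over the day passed the threshold in control cultures and not in Erg cultures, and these terms are the test of that difference.

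Each member's nearest patterns over the 8 arrays were taken as the other genes with the highest Pearson correlation, which is a description, since the arrays share their days and groups. Pparg was followed most closely by Igdcc4 (r = 0.999), with means of 9.33 in Erg day 1, 9.19 in control day 1, 6.52 in Erg day 0 and 6.22 in control day 0, and by Map2k5 (r = 0.999). Cfd was followed by Slc2a4 (r = 0.998) and the transcript 1500002O10Rik (r = 0.995). Cebpa was followed by Dnajc30 (r = 0.998) and by Dlk1 (r = 0.996), one of the 12 inhibitors. Cebpb was followed by Tcfap2a (r = 0.994) and Tmem61 (r = 0.993), and Cebpd by Mtf2 (r = 0.996) and Pde1b (r = 0.995). Klf15 was followed by Plekhg4 (r = 0.994) and Enpp6 (r = 0.990), and Adig by Pyroxd2 (r = 0.995) and Camk2a (r = 0.994). For Cd36 the gene given is Afmid (r = 0.996), and the nearest patterns were for Fabp4 Fundc1 (r = 0.994) and Mgst2 (r = 0.991), and for Lpl Prdx4 (r = 0.978) and Kcnh8 (r = 0.978).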

How the data were processed

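The authors deposited RMA intensity values on the linear scale; RMA subtracts background, equalises the arrays' quantiles and condenses probes to probe sets. The deposited notes credit Partek GS 6.6 and the series text credits dChip (2005), and which applies is not settled. The authors' deposited p-value and q-value columns were used for comparison alone. Positions in the table were taken as NCBIM37, since 96.64% of 11636 rows overlap an NCBIM37 record of the same row. Intensities were transformed to log2 here and all 45037 probe sets were fitted without a filter by limma 3.58.1 (R 4.3.3; lmFit and eBayes, group means over 8 arrays, 4 residual and 2.78 prior degrees of freedom). P values were adjusted by Benjamini-Hochberg over all probe sets at 0.05 for 5 comparisons. An exact permutation test of 2 arrays against 2 cannot go below p = 0.333. The number of arrays limits the precision. Detection calls were not used here.

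The members, the lists and the alternatives were chosen with earlier results of these data known. Named are all member probe sets, from each list up to 3 genes a direction with the largest difference past the threshold (or, with none, up to 2 with the smallest p), and the 2 genes most correlated with each member, of which 1 is not reported here; Ptprc, Itgam, Cd14 and Cd68 were named as markers. Of 96 list symbols 94 were measured, 1 of them by a synonym, and Plin1 and Cebpe were not analysed here. Settings varied in 18 alternatives were the dim probe set filter, normalization, variance model, array weights, replicate block, source table, arrays in the fit and each array left out.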

Additional observations from a re-analysis of the deposited data

How the results depend on the processing

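Leaving out each array leaves a group with 1 array, which is assumed to vary like the other groups, and 2 arrays a group limit every estimate. Over these fits the probe sets past the threshold numbered 0 to 3397 for Erg minus control on day 0 (members 0 to 4), 105 to 10337 for day 1 minus day 0 in Erg cultures (members 0 to 7; reported 3146 and 3), 366 to 16506 in control cultures (members 1 to 10; reported 8922 and 9) and 0 to 356 for the difference between days of the Erg effect (members 0 to 1). Directions turned in at least 1 of these fits, with these ranges. For Erg minus control on day 0 they were Cebpb 1418901_at (-0.23 to 0.34), Cebpb 1427844_a_at (-0.11 to 0.38), Cebpd 1423233_at (-1.09 to 0.21) and Cebpa 1418982_at (-0.47 to 0.42). For Erg minus control on day 1 they were Cebpd 1423233_at (-0.04 to 0.14), Pparg 1420715_a_at (-0.03 to 0.31), Klf15 1448181_at (-0.07 to 0.11), Lpl 1415904_at (-1.06 to 1.05), Lpl 1431056_a_at (-0.86 to 0.97), Cd36 1450883_a_at (-0.07 to 0.17), Cd36 1423166_at (-0.16 to 0.13), Fabp4 1417023_a_at (-0.61 to 0.16), Fabp4 1451263_a_at (-0.50 to 0.11), Fabp4 1424155_at (-1.11 to 0.16) and Cfd 1417867_at (-0.11 to 0.24). For day 1 minus day 0 in control cultures they were Lpl 1415904_at (-1.30 to 0.26) and Fabp4 1425809_at (-0.02 to 0.80). For day 1 minus day 0 in Erg cultures they were Lpl 1415904_at (-0.51 to 1.77), Lpl 1431056_a_at (-0.68 to 1.93), Fabp4 1425809_at (-0.08 to 0.34) and Adig 1424729_at (-0.03 to 0.27). For the difference between days of the Erg effect they were Cebpb 1418901_at (-0.07 to 0.50), Cebpb 1427844_a_at (-0.16 to 0.33), Cebpd 1423233_at (-0.16 to 1.14), Pparg 1420715_a_at (-0.25 to 0.09), Fabp4 1425809_at (-0.67 to 0.15) and Fabp4 1424155_at (-0.64 to 0.63). Cyclic loess turned Klf15 (-0.03) and Lpl 1431056_a_at (-0.02) for Erg minus control on day 1, and a second quantile normalization turned Pparg (0.02) and Fabp4 1424155_at (0.01) for the difference between days. For the control days, the filter on dim probe sets, which leaves out 7 member probe sets, gave 5076 probe sets and 5 members, and array weights gave 13973 probe sets. For the Erg days, array weights gave 1511 probe sets, and only the 4 arrays of the comparison gave 23 and 0 members. No label says whether same-numbered arrays form pairs. The correlations of same-numbered deviations ran between groups at -0.61 to 0.32. They were 0.32 between the day 1 groups and -0.61 between the day 0 groups, and do not settle whether the numbers pair arrays within a day. The replicate block gave 2182 probe sets and 2 members for the Erg days, 7110 and 7 for the control days, and 0 for the Erg comparisons and the difference between days. Chosen after seeing the data, a replicate block within each day gave 377 and 1 for the Erg days and 3251 for the control days, and with the day 0 numbers crossed 6814 and 8 for the Erg days. Over all 18 alternatives and 18 probe sets, 1432 of 1567 values kept their direction and their side of the threshold, 63 lost it, 24 gained it and 48 turned. The alternative source of the values matched the main one to a relative gap of 4.99e-10, so its agreement was fixed in advance. It is included in every tally of alternative settings above. The variance model, the dim probe set filter, the replicate blocks and the fit on only the 4 arrays of the comparison leave each difference unchanged. So does leaving out an array outside the comparison. In those settings the direction was fixed in advance and only the side of the threshold could move, so the tally of kept directions does not measure robustness there. In the Erg comparisons and the difference between days no member had passed, so none could lose a call. The causes were not tested.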
